A study of Rattus norvegicus with 30 samples.

Results

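The methionine cycle and the cysteine supply it feeds were followed through 9 enzyme genes, Mat1a, Mat2a, Gnmt, Ahcy, Bhmt, Cbs, Cth, Cdo1 and Csad, in rat hepatocytes exposed to acetaminophen. The genes were chosen by name for this pathway, 9 of the 14217 genes represented on the array, and all 9 were among the 8530 genes bright enough to be tested. They were measured by 11 probe sets, 3 for Mat2a and 1 for each of the others, and each gene was read from its brightest probe set. The cells were frozen hepatocytes of male Sprague Dawley rats, bought from a supplier, thawed, plated on collagen and covered with Matrigel. On the third day of culture they received 500 or 5000 µM acetaminophen or 1% DMSO as vehicle, and RNA was taken 24 or 48 h later. Each of the 6 groups of dose and time held 5 wells, each on its own array, 30 arrays in all. The labels call the wells independent cultures of purchased cells and do not say how many rats they came from, so the errors and p-values measure the spread between wells, not between animals. All groups share the strain and the sex. In cultured wells, fewer cells of a type and less RNA per cell cannot be told apart.

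The liver makes S-adenosylmethionine (SAM), the methyl donor of most methylation reactions, from methionine. Methyl transfer leaves S-adenosylhomocysteine (SAH), which is split to homocysteine. Homocysteine is either methylated back to methionine or passed through cystathionine to cysteine, the transsulfuration route, and cysteine feeds glutathione, taurine and sulfate. Acetaminophen is known for consuming hepatic glutathione through its reactive metabolite, and its sulfate conjugate draws on the same sulfur.

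Promoter sequences are shown for 2 pairs of the enzymes, because the genes of each pair moved together in the values that follow. Gnmt and Csad had the highest correlation over the arrays of any pair of the 9 genes (Pearson r 0.8), followed by Mat2a and Cth (0.78). By its brightest probe set Mat2a fell at 5000 µM at both times, as did Cth, Gnmt and Csad, so that fall does not set the pairs apart. At 24 h the other probe sets of Mat2a were higher at 5000 µM than in vehicle, by 0.49 and 0.37 on the log2 scale (limma adjusted p = 0.165 and 0.449). The sequences are RefSeq promoters of the GRCr8 assembly, 250 bases before to 50 bases after the annotated start, read 5′ to 3′ on the gene's strand. They cover chr4:106053563-106053862 on the minus strand for Mat2a, chr2:249661017-249661316 on the minus strand for Cth, chr9:21752032-21752331 on the plus strand for Gnmt and chr7:135215532-135215831 on the minus strand for Csad. The start used in that table lies at the outer end of the annotated gene for Mat2a and Cth, 47 bases inside it for Gnmt and 914 bases inside it for Csad, so the Csad sequence is a stretch within the gene. Capitals mark the matches, on either strand, to 6 motifs spelled out after the sequences.
Mat2a: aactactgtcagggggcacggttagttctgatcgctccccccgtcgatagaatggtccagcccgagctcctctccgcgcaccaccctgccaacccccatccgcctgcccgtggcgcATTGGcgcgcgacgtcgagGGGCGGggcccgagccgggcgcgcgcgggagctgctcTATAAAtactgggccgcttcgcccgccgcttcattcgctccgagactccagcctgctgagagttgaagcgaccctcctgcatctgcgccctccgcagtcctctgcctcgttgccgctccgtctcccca
Cth: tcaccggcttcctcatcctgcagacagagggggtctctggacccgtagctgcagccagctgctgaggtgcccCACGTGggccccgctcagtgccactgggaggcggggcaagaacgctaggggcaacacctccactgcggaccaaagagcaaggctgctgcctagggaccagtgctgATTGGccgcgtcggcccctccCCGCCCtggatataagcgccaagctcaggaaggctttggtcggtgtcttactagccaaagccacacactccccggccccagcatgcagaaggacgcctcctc
Gnmt: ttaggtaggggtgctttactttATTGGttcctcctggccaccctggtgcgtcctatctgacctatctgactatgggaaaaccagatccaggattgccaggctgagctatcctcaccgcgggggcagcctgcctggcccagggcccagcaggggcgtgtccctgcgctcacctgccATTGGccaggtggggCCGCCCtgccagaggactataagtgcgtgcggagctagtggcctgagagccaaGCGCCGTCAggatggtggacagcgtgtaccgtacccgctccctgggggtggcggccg
Csad: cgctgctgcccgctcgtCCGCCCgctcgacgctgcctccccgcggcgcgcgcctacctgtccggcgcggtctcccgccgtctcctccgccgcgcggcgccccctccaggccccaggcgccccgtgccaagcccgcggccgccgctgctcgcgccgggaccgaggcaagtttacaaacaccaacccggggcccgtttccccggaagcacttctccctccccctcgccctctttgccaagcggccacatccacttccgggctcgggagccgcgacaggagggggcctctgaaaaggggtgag

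The table of 33469 promoters held an entry for 8 of the 9 enzymes, all but Cdo1. The CCAAT box, CCAAT, was found in 5 of the 8 promoters and in 37.5% of all promoters of the same length. The GC box, GGGCGG, was found in 6 of the 8 and in 33.1% of all promoters. The TATA element, TATAAA, was found in Mat2a, 78 bases before the start (position -78), and in Bhmt at -29, against 14.2% of all promoters. The E-box CACGTG was found in Cth alone of the 8, at -178, against 6.42% of all promoters. The core of the antioxidant response element, TGACNNNGC, was found in Gnmt alone, at -7 on the minus strand, against 12.1%. The C/EBP-ATF element TGATGNAAN was found in 0 of the 8 and in 3.97% of all promoters. In the 4 printed promoters no match overlapped another. Mat2a, Cth and Gnmt each had a CCAAT box and a GC box, while Csad had a GC box at -233 and no other match. The GC content was 68.0% in Mat2a, 65.0% in Cth, 64.0% in Gnmt and 75% in Csad, against a median of 51.7% over all promoters. A match is a stretch of letters, not a measured binding site.

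The deposited signals had been scaled by the authors to a common trimmed mean. Within a group, arrays correlated at a Pearson r of 0.9747 or more over log2 signals, and 0 pairs of arrays were identical. The 9 hepatocyte markers on the array, among them Alb, Apoa1 and Hnf4a, were all tested, and their summed signal lay between 362500 and 475523 on every array. Of markers of other liver cells, 3 of 9 for Kupffer cells and leukocytes, 3 of 10 for stellate cells and fibroblasts, 2 of 7 for sinusoidal endothelium and 1 of 5 for cholangiocytes were bright enough to be tested. Within each list the levels were uneven. Of the Kupffer and leukocyte markers the geometric mean signal was 16068 for Cd14, 7109 for Lyz2 and 848 for Cd68, and it ran from 18 to 333 for the other 6. Of the stellate and fibroblast markers it was 5728 for Vim, 850 for Acta2 and 568 for Col3a1, and from 12 to 396 for the other 7. The endothelial markers were at 506 for Kdr, 493 for Eng and 61 to 186 for the other 5, and the cholangiocyte markers at 10782 for Epcam and 12 to 148 for the other 4. The summed stellate list, which was mostly the mesenchymal filament gene Vim, ran from 9041 to 11498 in vehicle, 6762 to 7990 at 500 µM and 5177 to 7662 at 5000 µM at 24 h. At 48 h it ran from 10046 to 13359, 7347 to 9656 and 6685 to 8247. The summed Kupffer list, which was mostly Cd14, ran from 22786 to 30434, 27313 to 31723 and 19717 to 22580 at 24 h, and from 24419 to 28520, 23477 to 25843 and 20899 to 23006 at 48 h. The endothelial sum, in the same order, ran from 1549 to 2477, 1721 to 2083 and 1534 to 1804 at 24 h, and from 1350 to 1958, 1838 to 1968 and 1332 to 1936 at 48 h. The cholangiocyte sum, mostly Epcam, ran from 9323 to 9651, 8989 to 11119 and 9577 to 11027 at 24 h, and from 13226 to 14495, 10932 to 11601 and 11981 to 13125 at 48 h, where the vehicle arrays lay above both doses. The part of these cells in the results was not tested.

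RNA integrity on the arrays was read from the ratio of the 3′ to the 5′ probe set of β-actin, which rises as RNA is degraded or incompletely copied. Its log2 value after 24 h averaged 1.78 ± 0.24 (SD, n = 5) for vehicle, 1.61 ± 0.33 for 500 µM and 1.37 ± 0.22 for 5000 µM. After 48 h the averages were 1.24 ± 0.11, 1.86 ± 0.12 and 1.21 ± 0.05 in the same order. The 500 µM arrays at 48 h were higher than vehicle by 0.62 on the log2 scale (two-sided exact permutation test, p = 0.00794, adjusted over 7 comparisons 0.0185), and 0.00794 is the smallest p that 5 against 5 allows. For 5000 µM against vehicle the difference was -0.03 at 48 h (exact p = 0.579) and -0.41 at 24 h (exact p = 0.0476, adjusted 0.0833). In vehicle the ratio was lower at 48 than at 24 h by 0.533 (exact p = 0.00794, adjusted 0.0185, change -0.533). For 5000 against 500 µM the difference was -0.24 at 24 h (exact p = 0.278) and -0.646 at 48 h (exact p = 0.00794, adjusted 0.0185). The same ratio for Gapdh varied less, with log2 means for vehicle, 500 µM and 5000 µM of 0.23, 0.153 and 0.118 after 24 h. After 48 h its means were 0.105, 0.259 and 0.086. Values from a fit with the actin ratio as a covariate stand beside calls of the 9 enzymes and of the other named genes that it ended. At 500 µM and 48 h that covariate and the dose nearly coincide. Between the doses at 48 h the ratios did not overlap either (1.735 to 1.997 at 500 µM, 1.149 to 1.287 at 5000 µM). Nor did those of vehicle at 24 h (1.492 to 1.989) and 48 h (1.09 to 1.341). The covariate values of those comparisons carry the same limit.

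Changes are differences of mean log2 signal ± moderated standard error from a limma fit to all 30 arrays, and a gene rose or fell where its Benjamini-Hochberg adjusted p over all 8530 genes was under 0.05. At 500 µM and 24 h, 0 of the 9 enzymes rose or fell, against 1.65% of all tested genes that rose and 1.21% that fell, and 2 of the 9 had an unadjusted p under 0.05 in limma. At 5000 µM and 24 h, 0 rose and 7 fell, against 18.6% and 19.6% of all genes, and the median change of the 9 was -0.28 against 0.00 for all genes. At 500 µM and 48 h, 3 rose and 1 fell, against 24% and 18.6% of all genes, with medians of 0.04 and 0.01. At 5000 µM and 48 h, 3 rose and 4 fell, against 14.6% and 18% of all genes, with medians of 0.05 and -0.01. The 2 dose comparisons at a time share their vehicle arrays. Between the doses, 5000 against 500 µM, 0 rose and 6 fell at 24 h, against 16.8% and 14.3% of all genes, and 2 rose and 6 fell at 48 h, against 19.4% and 28.2%. In vehicle, 0 of the 9 were higher and 3 were lower at 48 than at 24 h, against 13.4% and 19.1% of all genes.

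The effect of a dose at 48 h was also set against its effect at 24 h. For 500 µM the difference was above 0 for 3 enzymes and below 0 for 1, against 22.1% and 14.5% of all genes. For 5000 µM it was above 0 for 3 and below 0 for 1, against 7.74% and 8.66% of all genes. Centring each array on its own median shifted the median of all genes by at most 0.089, and it moved the share of higher genes among those called. That share went from 57.8% to 84.3% for 500 µM at 24 h, from 48.7% to 31.6% for 5000 µM at 24 h and from 56.3% to 84.3% for 500 µM at 48 h. It went from 54% to 32.6% between the doses at 24 h, from 40.8% to 21.9% between the doses at 48 h and from 41.3% to 14% for time in vehicle. For the differences between times it went from 60.3% to 87% at 500 µM and from 47.2% to 71.7% at 5000 µM. Of the 43 changes of the 9 enzymes that passed in the 9 comparisons, 19 passed under every alternative tried.

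**Figure D1:**
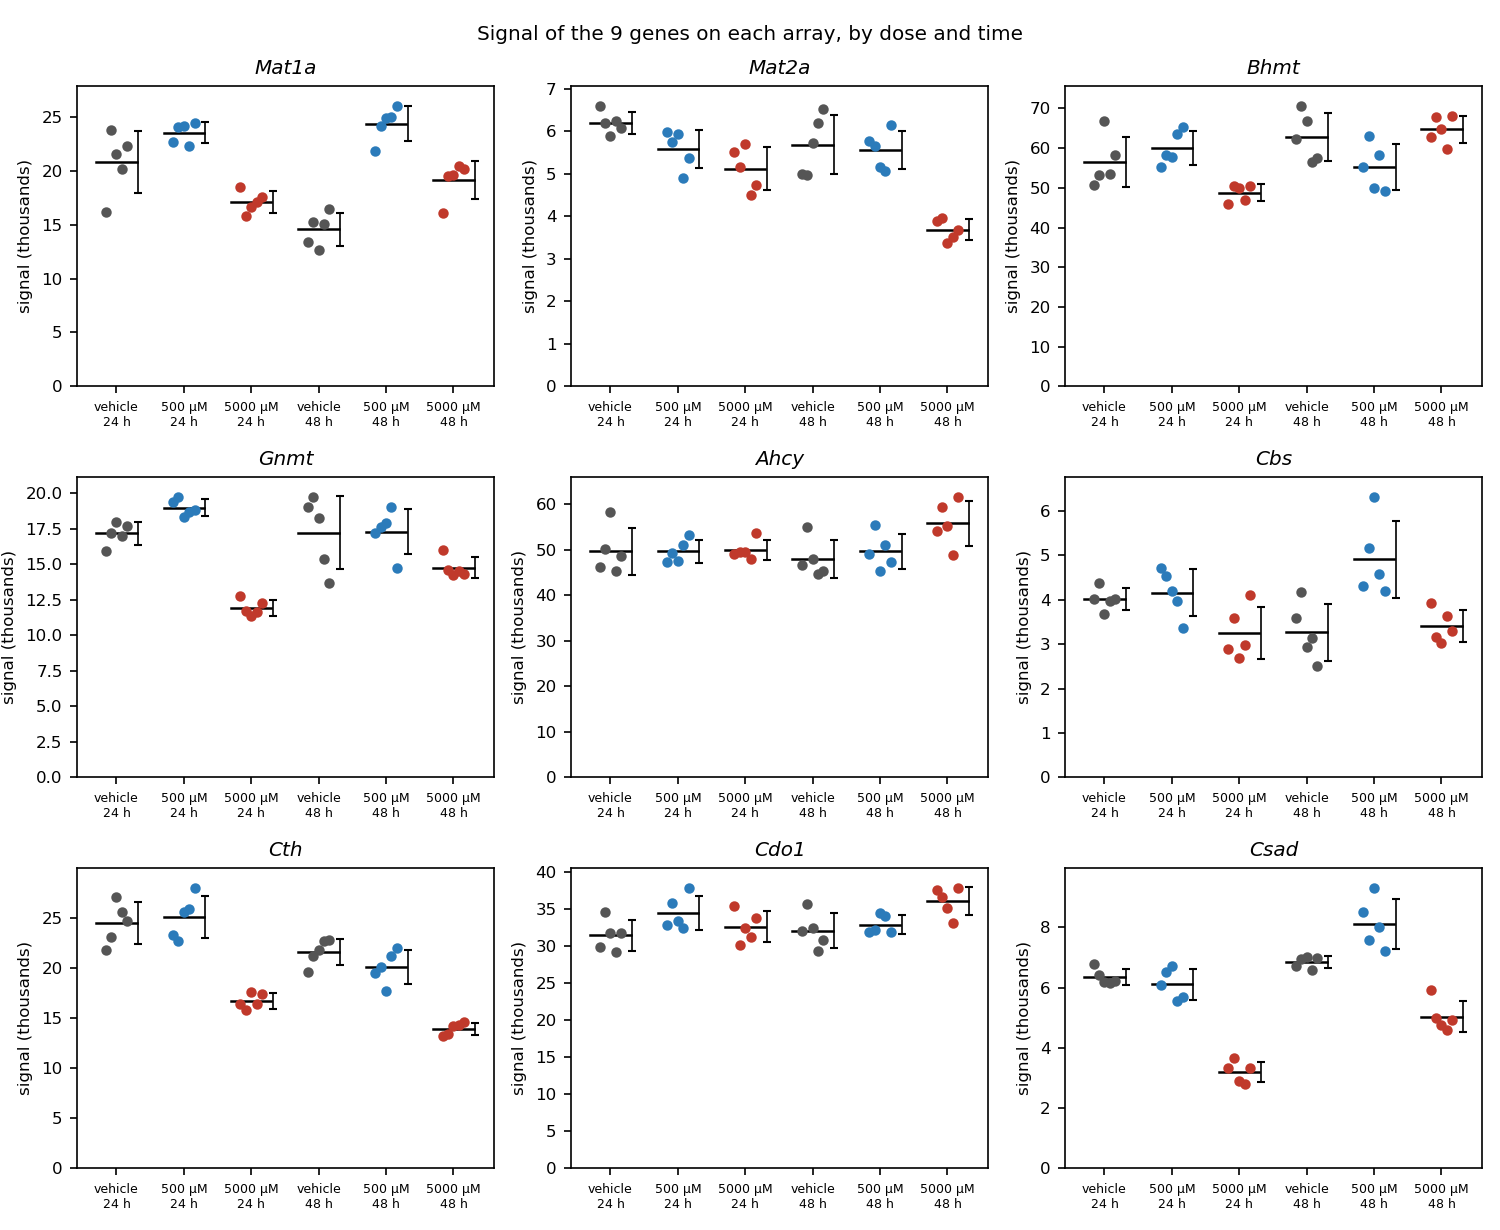
Signal of each of the 9 enzymes (linear scale from 0) on each of the 30 arrays, by dose and time, with points for arrays, a line at the group mean and a bar of ± 1 SD over 5 arrays. Csad at 5000 µM and 24 h lies between 2795 and 3650, below every other array of that gene, and Cth at 5000 µM lies below all vehicle and 500 µM arrays at both times.

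Mat1a encodes the methionine adenosyltransferase of adult hepatocytes, which makes SAM. At 24 h its signal on the 5 vehicle arrays was 16183, 23763, 21549, 20141 and 22304, at 500 µM it was 22684, 24084, 24171, 22314 and 24386, and at 5000 µM it was 18528, 15798, 16681, 17076 and 17591. The 48 h arrays read 13410, 15227, 12658, 15080 and 16465 in vehicle, 21804, 24106, 24880, 25018 and 26038 at 500 µM, and 16094, 19528, 19589, 20477 and 20166 at 5000 µM. The lowest vehicle array at 24 h lay among the 5000 µM arrays, and all 500 µM arrays at 48 h lay above all vehicle arrays. Mat1a fell at 5000 µM and 24 h by 0.27 on the log2 scale (change -0.27 ± 0.08, limma adjusted p = 0.008). At 48 h it rose, by 0.75 ± 0.08 at 500 µM (adjusted p = 8.17e-08) and by 0.40 ± 0.08 at 5000 µM (adjusted p = 0.000216), where 1 of the 5000 µM arrays overlapped vehicle. The effect of 5000 µM thus differed between the times by 0.67 ± 0.11 (adjusted p = 0.000112), and that of 500 µM by 0.56 ± 0.11 (adjusted p = 0.000469). With the actin ratio in the model the rise at 500 µM and 48 h was 0.77 ± 0.11 (adjusted p = 0.000112), while the difference between times at 500 µM no longer passed (0.59, adjusted p = 0.0797).

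The vehicle itself moved for Mat1a. Its mean signal was 20788 ± 2888 (SD, n = 5) at 24 h and 14568 ± 1523 at 48 h, a change of -0.51 ± 0.08 (adjusted p = 2.77e-05), with 1 vehicle array at 24 h inside the 48 h range. The 48 h vehicle had the lowest mean of the 6 groups, and 500 µM at 48 h had the highest. No neighbouring groups in the order of Mat1a levels were free of overlap. At each time the 5000 µM arrays lay below the 500 µM arrays, by -0.46 ± 0.08 at 24 h (adjusted p = 3.88e-05) and -0.35 ± 0.08 at 48 h (adjusted p = 0.000641).

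Mat2a encodes the other catalytic subunit, found in most tissues and in growing or dedifferentiating hepatocytes. By its brightest probe set it fell at 5000 µM at both times, and most at 48 h. At 24 h its signal was 6602, 6186, 5892, 6239 and 6083 in vehicle, 5971, 5758, 5930, 4903 and 5379 at 500 µM, and 5506, 5156, 5705, 4501 and 4732 at 5000 µM. After 48 h the signal stood at 5005, 4975, 5729, 6189 and 6525 in vehicle, 5767, 5646, 5155, 5068 and 6147 at 500 µM, and 3892, 3970, 3368, 3516 and 3673 at 5000 µM. All 5000 µM arrays lay below all vehicle arrays at each time, and those at 48 h lay below every other array of this probe set. The change at 5000 µM was -0.28 ± 0.08 at 24 h (adjusted p = 0.00428) and -0.62 ± 0.08 at 48 h (adjusted p = 1.53e-07), a 1.54-fold fall. The difference between the times was -0.34 ± 0.11 (adjusted p = 0.0311). That difference did not pass without vehicle array 3 or 5000 µM array 3 of 24 h, nor without vehicle array 4 or 5 or 5000 µM array 3 or 4 of 48 h, where it lay between -0.323 and -0.287 (adjusted p 0.0549 to 0.0724). It did not pass after centring the arrays on their medians either (-0.273, adjusted p = 0.316). At 500 µM the change was -0.15 ± 0.08 at 24 h (adjusted p = 0.291) and -0.03 ± 0.08 at 48 h (95% interval -0.186 to 0.13).

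The 3 probe sets of Mat2a did not give one answer. The second brightest averaged 1252 ± 282 (SD, n = 5) for vehicle, 1440 ± 591 for 500 µM and 1801 ± 567 for 5000 µM after 24 h, and 2117 ± 493, 1093 ± 338 and 1432 ± 314 after 48 h. Its change at 5000 µM was 0.49 at 24 h (adjusted p = 0.165) and -0.56 at 48 h (adjusted p = 0.124). At 500 µM and 48 h, where the brightest probe set showed -0.03, this one fell by 0.97 on the log2 scale (change -0.973, adjusted p = 0.00338). In vehicle it rose with time, by 0.76 (adjusted p = 0.0279). The dimmest probe set passed in none of the 9 comparisons, and its changes at 5000 µM were 0.37 at 24 h and -0.39 at 48 h (adjusted p = 0.449 and 0.472). The direction at 5000 µM and 48 h was therefore downward in all 3 and passed in 1, while that at 24 h differed between them.

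**Figure D2:**
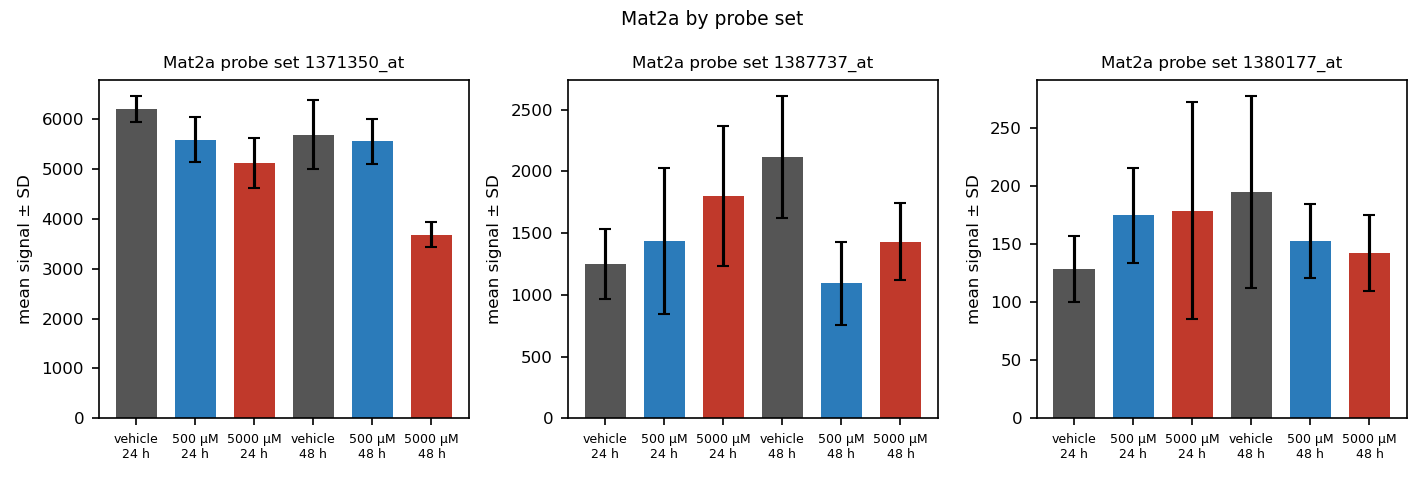
Mean signal ± SD (n = 5 arrays, linear axes from 0, each with its own range) of the 3 Mat2a probe sets by dose and time. The brightest, at left, is lowest at 5000 µM and 48 h, whereas the second is lowest at 500 µM and 48 h and has wide error bars.

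Gnmt encodes glycine N-methyltransferase, an abundant liver enzyme that disposes of surplus SAM. At 24 h its signal was 15942, 17183, 17972, 17020 and 17714 in vehicle, 19361, 19756, 18323, 18703 and 18799 at 500 µM, and 12742, 11703, 11346, 11626 and 12239 at 5000 µM. In the 48 h wells it was 19019, 19736, 18282, 15349 and 13701 for vehicle, 17173, 17630, 17895, 19040 and 14708 at 500 µM, and 16022, 14626, 14212, 14521 and 14312 at 5000 µM. At 24 h the 3 groups did not overlap, in the order 5000 µM, vehicle, 500 µM. At 48 h the vehicle arrays spread over the whole range of both doses. Gnmt fell at 5000 µM and 24 h 1.44-fold (change -0.525 ± 0.073, adjusted p = 7.51e-07). At 48 h the change was smaller, -0.21 ± 0.07 (adjusted p = 0.0239). This smaller fall did not pass without vehicle array 1, 2 or 3 or 5000 µM array 3 (between -0.199 and -0.159, adjusted p 0.0542 to 0.1), after median centring (adjusted p = 0.0914) or in a fit of the 2 groups compared alone (adjusted p = 0.0716). The change at 500 µM and 24 h was 0.15 ± 0.07 and did not pass (adjusted p = 0.277).

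Set against 500 µM, Gnmt at 5000 µM fell by 0.67 at 24 h (change -0.67 ± 0.07, adjusted p = 1.25e-08). At 48 h the change between the doses was -0.23 ± 0.07 (adjusted p = 0.0111), and with the actin ratio in the model it was -0.099 (adjusted p = 0.545). The effect of 5000 µM differed between the times by 0.31 ± 0.10 (adjusted p = 0.0342). That difference was 0.24 with the covariate (adjusted p = 0.172), 0.38 after median centring (adjusted p = 0.0623) and 0.31 with no filter on dim genes (adjusted p = 0.0564). It also did not pass without vehicle array 2, 3 or 5 or 5000 µM array 3 or 4 of 24 h, nor without vehicle array 4 or 5 or 5000 µM array 1 of 48 h (0.234 to 0.312, adjusted p 0.051 to 0.0785).

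Ahcy encodes the hydrolase that splits SAH to homocysteine and adenosine. Over the 30 arrays its signal ran from 44562 to 61625, and the means of 5 groups lay between 47840 and 49933. The sixth, 5000 µM at 48 h, had a mean of 55777 ± 4963 (SD, n = 5), overlapping vehicle at 47840 ± 4173. Ahcy rose there by 0.22 ± 0.07 (adjusted p = 0.0117), which was 0.22 with an adjusted p of 0.0734 after median centring. Against 500 µM at 48 h the change was 0.17 ± 0.07 (adjusted p = 0.0429). That comparison did not pass without 500 µM array 1, 3 or 5 or 5000 µM array 2, 3 or 5 (0.13 to 0.169, adjusted p 0.0607 to 0.135), nor after median centring (0.078, adjusted p = 0.518), with no filter (adjusted p = 0.075), between these groups alone (adjusted p = 0.066) or with the covariate (0.147, adjusted p = 0.329). At 24 h the change of Ahcy at 5000 µM was 0.01 ± 0.07 (95% interval -0.125 to 0.152).

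Bhmt encodes betaine-homocysteine methyltransferase, the liver's betaine-dependent route back to methionine. Its signal ran from 45905 to 50528 at 5000 µM and 24 h, below all vehicle arrays (50815 to 66766) and all 500 µM arrays (55308 to 65355) of that time. At 48 h it ran from 56450 to 70706 in vehicle, 49135 to 63127 at 500 µM and 59878 to 68094 at 5000 µM, with overlap throughout. Bhmt fell at 5000 µM and 24 h by 0.21 (change -0.207 ± 0.073, adjusted p = 0.0233). The fall did not pass without vehicle array 3 or 5 or 5000 µM array 1 or 4 (-0.194 to -0.145, adjusted p 0.0515 to 0.105). Against 500 µM at 24 h it fell by 0.30 (change -0.297 ± 0.073, adjusted p = 0.00187), a change that passed under every alternative. At 48 h the change at 5000 µM was 0.05 ± 0.07 (95% interval -0.1 to 0.196).

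Bhmt also fell at 500 µM and 48 h, by 0.19 (change -0.187 ± 0.073, adjusted p = 0.0381), the only enzyme of the 9 to fall in that comparison. The change was -0.10 with the actin ratio in the model (adjusted p = 0.636), -0.10 after median centring (adjusted p = 0.444) and -0.08 after quantile normalization (adjusted p = 0.1). It also did not pass with no filter (adjusted p = 0.0696), between the 2 groups alone (adjusted p = 0.0682), or without vehicle array 1, 2 or 3 or 500 µM array 1, 3 or 5 (-0.189 to -0.142, adjusted p 0.0532 to 0.126). Between the doses at 48 h Bhmt was higher at 5000 µM by 0.235 ± 0.073 (adjusted p = 0.00853), which became 0.147 with the covariate (adjusted p = 0.352) and 0.146 after median centring (adjusted p = 0.21). The effect of 500 µM differed between the times by -0.28 ± 0.10 (adjusted p = 0.0341). This was -0.17 with the covariate (adjusted p = 0.572) and -0.194 after median centring (adjusted p = 0.283), and did not pass with no filter (adjusted p = 0.0638) or between these groups alone (adjusted p = 0.0606). It also did not pass without vehicle array 1 or 2 or 500 µM array 4 or 5 of 24 h, or vehicle array 2 or 3 or 500 µM array 3 or 5 of 48 h (-0.258 to -0.232, adjusted p 0.0575 to 0.0742).

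Cbs encodes cystathionine β-synthase, which commits homocysteine to transsulfuration. At 24 h its signal was 4023, 4384, 3687, 3965 and 4015 in vehicle, 4717, 4540, 4203, 3974 and 3373 at 500 µM, and 2889, 3591, 2695, 2979 and 4114 at 5000 µM. By 48 h it stood at 3590, 4171, 2937, 3133 and 2499 in vehicle, 4319, 5160, 6321, 4574 and 4193 at 500 µM, and 3925, 3156, 3035, 3626 and 3302 at 5000 µM. All 500 µM arrays at 48 h lay above all vehicle and all 5000 µM arrays of that time, and the groups overlapped at 24 h. Cbs rose at 500 µM and 48 h 1.51-fold (change 0.595 ± 0.123, adjusted p = 0.000329), and with the actin ratio in the model the change was 0.40 ± 0.17 (adjusted p = 0.186). Against 500 µM, 5000 µM at 48 h was lower, with a change of -0.52 ± 0.12 (adjusted p = 0.00087), or -0.31 with the covariate (adjusted p = 0.21). The change of Cbs at 5000 µM and 48 h against vehicle was 0.08 ± 0.12 (95% interval -0.173 to 0.328).

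Cbs fell at 5000 µM and 24 h by 0.32 (change -0.319 ± 0.123, adjusted p = 0.0391). The change was -0.191 with the covariate (adjusted p = 0.337). It did not pass with no filter (adjusted p = 0.0607), or without vehicle array 1, 2, 4 or 5 or 5000 µM array 1, 3 or 4 (-0.323 to -0.256, adjusted p 0.0553 to 0.125). The change between the doses at 24 h was -0.36 ± 0.12 (adjusted p = 0.0226), -0.287 with the covariate (adjusted p = 0.0833), and did not pass without 500 µM array 1 or 2 or 5000 µM array 1, 3 or 4 (-0.336 to -0.3, adjusted p 0.0541 to 0.079). In vehicle Cbs was lower at 48 than at 24 h, with a change of -0.32 ± 0.12 (adjusted p = 0.0458). That change was -0.15 with the covariate (adjusted p = 0.652) and -0.284 after quantile normalization (adjusted p = 0.0773). It did not pass with no filter (adjusted p = 0.0727), with the mean of all probe sets per gene (adjusted p = 0.0557), or without vehicle array 1, 2, 4 or 5 of 24 h or 3, 4 or 5 of 48 h (-0.322 to -0.227, adjusted p 0.0632 to 0.164). The effect of 500 µM differed between the times by 0.55 ± 0.17 (adjusted p = 0.0137), or 0.30 with the covariate (adjusted p = 0.535).

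Cth encodes cystathionine γ-lyase, which releases cysteine from cystathionine. It fell at 5000 µM at both times, and the 5000 µM wells were its lowest at each time. At 24 h its signal was 21774, 23149, 27126, 25580 and 24745 in vehicle, 23281, 22750, 25608, 25850 and 28029 at 500 µM, and 16368, 15809, 17644, 16409 and 17446 at 5000 µM. The later wells, at 48 h, gave 19627, 21169, 21794, 22727 and 22807 in vehicle, 19529, 20086, 17692, 21218 and 22036 at 500 µM, and 13251, 13382, 14225, 14291 and 14618 at 5000 µM. The 5000 µM arrays lay below all vehicle and 500 µM arrays at each time, and those at 48 h lay below those at 24 h. Cth fell 1.46-fold at 24 h (change -0.545 ± 0.064, adjusted p = 3.48e-08) and 1.55-fold at 48 h (change -0.63 ± 0.06, adjusted p = 2.26e-09). The 2 effects differed by -0.09 ± 0.09 (95% interval -0.269 to 0.098, adjusted p = 0.567). Against 500 µM the changes were -0.58 ± 0.06 (adjusted p = 1.49e-08) and -0.525 ± 0.064 (adjusted p = 7.22e-08). With the actin ratio in the model the falls against vehicle were -0.65 ± 0.07 and -0.64 ± 0.06.

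At 500 µM the change of Cth was 0.04 ± 0.06 at 24 h (95% interval -0.093 to 0.166) and -0.11 ± 0.06 at 48 h (adjusted p = 0.178). In vehicle Cth was lower at 48 than at 24 h, with a change of -0.18 ± 0.06 (adjusted p = 0.0327). It was -0.31 with the covariate (adjusted p = 0.0111) and -0.255 after median centring (adjusted p = 0.0555), and did not pass with no filter (adjusted p = 0.0525). It also did not pass without vehicle array 3, 4 or 5 of 24 h or 1 or 2 of 48 h (-0.172 to -0.138, adjusted p 0.0568 to 0.105).

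Cdo1 encodes cysteine dioxygenase, which oxidises cysteine to cysteine sulfinic acid and opens the route to taurine and sulfate. Its signal ran from 29242 to 37860 over the 30 arrays, and the group means spanned 0.2 on the log2 scale, the least of the 9. The mean was 36053 ± 1935 (SD, n = 5) at 5000 µM and 48 h and 32035 ± 2374 in vehicle of that time, and the 2 groups overlapped. Cdo1 rose there by 0.17 ± 0.06 (adjusted p = 0.0196). The rise did not pass after median centring (adjusted p = 0.189), nor without 5000 µM array 1 or 5 or vehicle array 4 (0.14 to 0.156, adjusted p 0.0519 to 0.0758). Its change at 5000 µM and 24 h was 0.05 ± 0.06 (95% interval -0.064 to 0.169), and at 500 µM it was 0.13 ± 0.06 at 24 h (adjusted p = 0.2) and 0.04 ± 0.06 at 48 h (adjusted p = 0.594).

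Csad encodes cysteine sulfinic acid decarboxylase, which follows Cdo1 on the way to taurine. At 24 h its signal was 6775, 6419, 6178, 6152 and 6228 in vehicle, 6078, 6524, 6725, 5565 and 5677 at 500 µM, and 3315, 3650, 2904, 2795 and 3325 at 5000 µM. For the 48 h arrays the values were 6732, 6958, 7012, 6580 and 6981 in vehicle, 8498, 7589, 9319, 7996 and 7200 at 500 µM, and 5921, 4990, 4766, 4596 and 4924 at 5000 µM. The 5000 µM arrays lay below all others at each time, and at 48 h the 500 µM arrays lay above all others. Csad fell 1.99-fold at 5000 µM and 24 h (change -0.996 ± 0.075, adjusted p = 3.23e-12), the largest change of the 9 against vehicle, and 1.36-fold at 48 h (change -0.45 ± 0.07, adjusted p = 1.56e-05). The 2 effects differed by 0.55 ± 0.10 (adjusted p = 0.000463). Against 500 µM the changes were -0.94 ± 0.07 at 24 h (adjusted p = 2.18e-11) and -0.69 ± 0.07 at 48 h (adjusted p = 8.61e-09).

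Csad rose at 500 µM and 48 h 1.18-fold (change 0.24 ± 0.07, adjusted p = 0.0107), and with the actin ratio in the model that change was 0.10 ± 0.10 (adjusted p = 0.652). Its change at 500 µM and 24 h was -0.06 ± 0.07 (95% interval -0.21 to 0.094). The effect of 500 µM differed between the times by 0.30 ± 0.10 (adjusted p = 0.0269). This was 0.115 with the covariate (adjusted p = 0.721), and did not pass without vehicle array 1 or 500 µM array 4 or 5 of 24 h or 500 µM array 3 of 48 h (0.246 to 0.274, adjusted p 0.0509 to 0.0641). Cdo1 and Csad catalyse consecutive steps, and their levels over the 30 arrays had a Pearson r of -0.06.

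**Figure D3:**
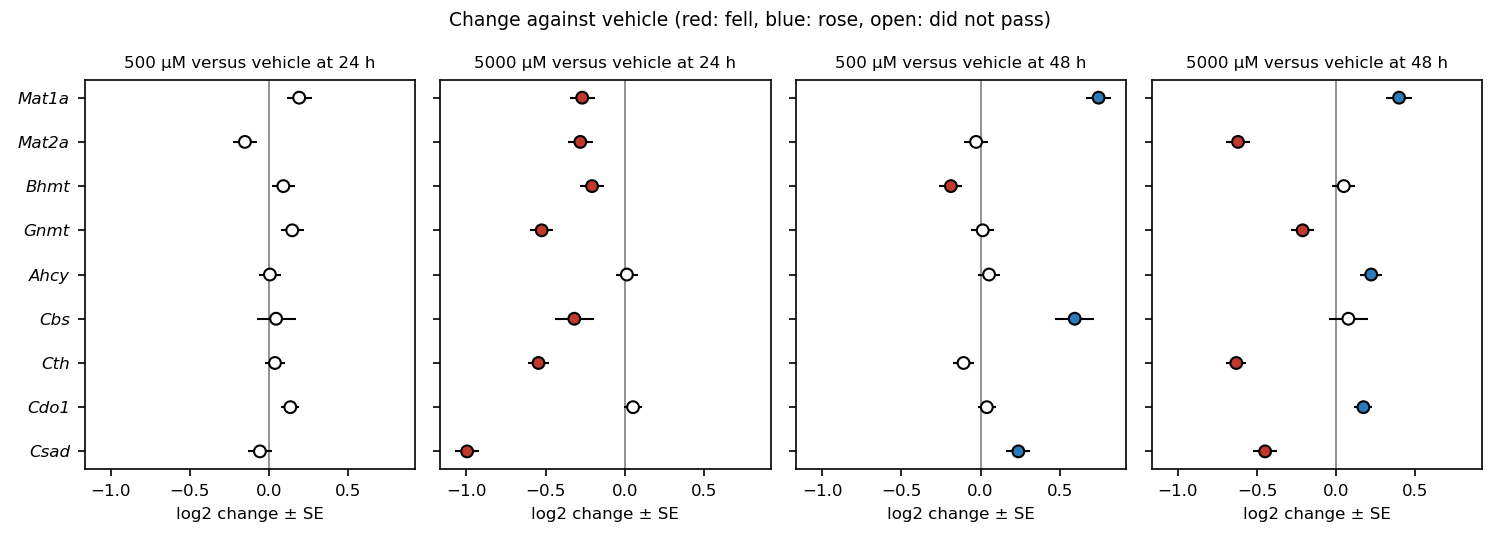
Change of each of the 9 enzymes against vehicle of the same time (log2 scale, horizontal bars are ± 1 standard error), with filled points where the limma adjusted p was under 0.05. All 7 filled points at 5000 µM and 24 h lie left of 0, while at 48 h Mat1a, Ahcy and Cdo1 lie right of 0 and Mat2a, Gnmt, Cth and Csad left.

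**Figure D4:**
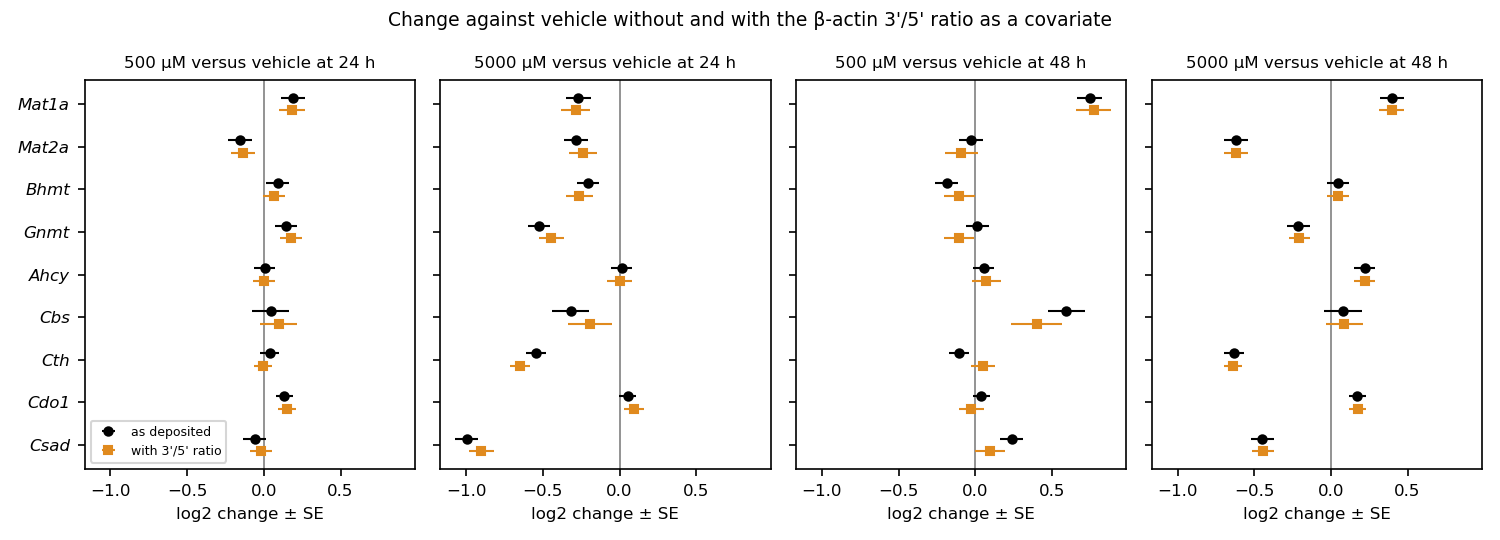
The same changes (log2 scale, ± 1 standard error) from the fit as deposited (black) and from the fit with the β-actin 3′/5′ ratio as a covariate (orange). At 500 µM and 48 h the orange points of Cbs (0.40), Csad (0.10) and Bhmt (-0.10) lie nearer 0 than the black ones, and that of Mat1a (0.77) does not.

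The other genes of the pathway were read from lists chosen by function. Of all tested genes, 18.6% rose and 19.6% fell at 5000 µM and 24 h, and 14.6% and 18% at 5000 µM and 48 h. The shares at 500 µM were 24% and 18.6% at 48 h, and 1.65% and 1.21% at 24 h. With the actin ratio in the model, 2602 of the 8530 genes passed at 5000 µM and 24 h. The numbers at 48 h were 3026 at 5000 µM and 339 at 500 µM. Of 13 tested genes of remethylation, folate and betaine supply, 0 rose and 9 fell at 5000 µM and 24 h (median change -0.485, against 0.00 for all genes), 2 rose and 7 fell at 5000 µM and 48 h (median -0.22), and 6 rose at 500 µM and 48 h. Chdh, choline dehydrogenase, which makes the betaine precursor, fell at 5000 µM by 1.04 at 24 h (change -1.04 ± 0.09, adjusted p = 3.76e-11) and 0.72 at 48 h (change -0.72 ± 0.09, adjusted p = 8.02e-08). It was also the 1 gene of this list to fall at 500 µM and 24 h (change -0.32 ± 0.09, adjusted p = 0.0374), which did not pass with the actin ratio in the model (-0.264, adjusted p = 0.0858). Ftcd, which moves one-carbon units from histidine breakdown into folate, changed by -0.89 ± 0.10 at 5000 µM and 24 h (adjusted p = 2.13e-08). Mthfd1, a cytosolic folate enzyme, rose by 0.53 ± 0.08 at 500 µM and 48 h (adjusted p = 5.15e-06), or 0.32 with the covariate (adjusted p = 0.051). At 5000 µM Mthfd1 fell at both times, with changes of -0.485 at 24 h and -0.262 at 48 h. With the covariate these were -0.344 (adjusted p = 0.00127) and -0.252 (adjusted p = 0.00353). With the actin ratio in the model, 1 rose and 8 fell at 5000 µM and 24 h, and 0 of the 13 rose at 500 µM and 48 h in limma, where 2 were higher at an unadjusted p under 0.05.

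Of 7 tested methyltransferases that use SAM beside Gnmt, 1 rose and 5 fell at 5000 µM and 24 h (median -0.57), against 18.6% and 19.6% of all genes. At 5000 µM and 48 h 1 rose and 4 fell (median -0.22), against 14.6% and 18%. Pemt, which makes phosphatidylcholine, changed by -0.98 ± 0.10 at 24 h (adjusted p = 8.98e-10) and -0.64 ± 0.10 at 48 h (adjusted p = 2.97e-06). Gamt, which makes creatine, changed by -0.77 ± 0.06 at 24 h (adjusted p = 3.21e-11). Tpmt, the thiopurine methyltransferase, rose at both times, by 0.335 ± 0.075 (adjusted p = 0.000553) and 0.62 ± 0.07 (adjusted p = 7.21e-08). With the covariate the rise at 24 h did not pass (0.181, adjusted p = 0.0598), so that 0 rose and 5 fell then. Nnmt, which methylates nicotinamide, rose at 500 µM and 24 h by 0.275 ± 0.075 (adjusted p = 0.037) and fell at 5000 µM and 48 h (change -0.70 ± 0.07, adjusted p = 8.06e-09). The rise of Nnmt did not pass with the covariate (0.254, adjusted p = 0.0728). At 5000 µM Nnmt had fallen at 24 h too (change -0.327, or -0.38 with the covariate, adjusted p = 0.00119).

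Among 5 accessory genes of SAM and SAH handling, 3 rose and 0 fell at 5000 µM and 24 h (median 0.15), against 18.6% and 19.6% of all genes. With the covariate 1 of them rose. Ada, adenosine deaminase, which removes the adenosine that Ahcy releases, rose by 0.62 ± 0.13 at 24 h (adjusted p = 0.000273) and 0.43 ± 0.13 at 48 h (adjusted p = 0.0105). The mean signal of Ada went from 399.4 in vehicle to 608.9 at 24 h, and from 518 to 698.4 at 48 h. The limit of 469 for testing applied to the mean over all 30 arrays, those of 5000 µM included. The 24 h vehicle of Ada lay below it. The shares of all genes at 5000 µM were 18.6% and 19.6% at 24 h, and 14.6% and 18% at 48 h. Of 11 genes of methionine salvage and polyamines, 3 rose and 1 fell at 5000 µM and 24 h and 1 rose and 5 fell at 500 µM and 48 h, which with the covariate were 3 and 2, and 1 and 0. The shares of all genes at 500 µM and 48 h were 24% and 18.6%. Sms, spermine synthase, rose by 0.77 ± 0.10 at 5000 µM and 24 h (adjusted p = 1.3e-07), and Oaz1, which restrains ornithine decarboxylase, rose by 0.46 ± 0.07 there (adjusted p = 9.62e-07).

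Cysteine also enters the cell directly. Of 7 tested genes of cysteine uptake and amino acid exchange, 0 rose and 3 fell at 5000 µM and 24 h (median 0.06, above 0 although 3 fell), and 2 rose and 3 fell at 48 h (median -0.36). The shares of all genes were 18.6% and 19.6% at 24 h, and 14.6% and 18% at 48 h. With the covariate 1 rose and 1 fell at 24 h. Slc7a11, the cystine-glutamate exchanger, changed by -0.58 ± 0.10 at 24 h (adjusted p = 2.5e-05) and -1.23 ± 0.10 at 48 h (adjusted p = 2.17e-11), from a mean signal of 2728 in vehicle to 1169 at 48 h. Slc38a2, a neutral amino acid transporter, rose at 48 h at both doses, by 0.58 ± 0.07 at 500 µM (adjusted p = 1.02e-06) and 0.36 ± 0.07 at 5000 µM (adjusted p = 0.000282).

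Of 11 genes of glutathione synthesis and breakdown, 0 rose and 7 fell at 5000 µM and 24 h (median -0.25), and 2 rose and 4 fell at each dose at 48 h (medians -0.03 at 500 µM and -0.21 at 5000 µM). The shares of all genes were 18.6% and 19.6% at 5000 µM and 24 h. At 48 h they were 24% and 18.6% at 500 µM, and 14.6% and 18% at 5000 µM. With the covariate, 3 fell at 5000 µM and 24 h, and 1 rose and 0 fell at 500 µM and 48 h. Gclc, the catalytic subunit of the first enzyme of glutathione synthesis, fell at 500 µM and 24 h (change -0.25 ± 0.06, adjusted p = 0.024), and Gclm, its modifier subunit, fell at 500 µM and 48 h (change -0.42 ± 0.07, adjusted p = 6.48e-05). Neither of these passed with the covariate, where the changes were -0.214 (adjusted p = 0.0519) and -0.277 (adjusted p = 0.121). Gclm also fell at 5000 µM and 48 h (change -0.26), and this passed with the covariate (-0.267, adjusted p = 0.00351). Gclc also fell at 5000 µM and 24 h (change -0.191), which did not pass with the covariate (-0.094, adjusted p = 0.336). Chac1, which degrades glutathione, rose at 500 µM and 24 h by 0.46 ± 0.09 (adjusted p = 0.00224) and fell at 5000 µM and 48 h (change -0.40 ± 0.09, adjusted p = 0.000594). Chac1 also fell at 5000 µM and 24 h (change -0.246), which did not pass with the covariate (-0.248, adjusted p = 0.0755). Ggt1, which starts the breakdown of extracellular glutathione, changed by -0.72 ± 0.14 at 5000 µM and 24 h (adjusted p = 0.000143) and -0.999 ± 0.143 at 48 h (adjusted p = 1.54e-06). Its mean signal at 5000 µM and 24 h was 410.7, below the limit of 469 for testing, against 679 in vehicle. At 48 h it was 569.4 against 1124.

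Of 13 genes of cysteine sulfur oxidation, taurine and sulfate, 2 rose and 7 fell at 5000 µM and 24 h (median -0.18), and 2 rose and 5 fell at 48 h (median -0.08). The shares of all genes were 18.6% and 19.6% at 24 h, and 14.6% and 18% at 48 h. With the covariate 2 rose and 6 fell at 24 h. Suox, sulfite oxidase, the last step to sulfate, rose at 5000 µM by 0.55 ± 0.08 at 24 h (adjusted p = 3.41e-06) and 0.64 ± 0.08 at 48 h (adjusted p = 3.47e-07). Slc26a1, a sulfate transporter, changed by -0.91 ± 0.11 at 5000 µM and 24 h (adjusted p = 1.04e-07) and rose at 500 µM and 48 h by 0.64 ± 0.11 (adjusted p = 6.19e-05). That rise was 0.304 with the covariate (adjusted p = 0.22). Slc26a1 also fell at 5000 µM and 48 h (change -0.465, or -0.45 with the covariate, adjusted p = 0.000433). Baat, which joins bile acids to taurine or glycine, changed by -0.92 ± 0.14 at 5000 µM and 24 h (adjusted p = 4.23e-06). Slc6a6, the taurine transporter, changed by -0.94 ± 0.16 at 5000 µM and 48 h (adjusted p = 3.02e-05).

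Of 9 tested regulators, 1 rose and 2 fell at 5000 µM at each time (medians -0.05 and -0.01 at 24 and 48 h), and 5 rose at 500 µM and 48 h. At 5000 µM these counts were near the shares of all genes, 18.6% and 19.6% at 24 h and 14.6% and 18% at 48 h. At 500 µM and 48 h 24% of all genes rose. With the covariate 0 of the 9 rose or fell at 5000 µM and 24 h in limma (3 at an unadjusted p under 0.05), 2 rose and 3 fell at 5000 µM and 48 h, and 2 rose at 500 µM and 48 h. Ddit3, a stress-response factor, rose at 24 h by 0.39 ± 0.08 at 500 µM (adjusted p = 0.00503) and 0.275 ± 0.082 at 5000 µM (adjusted p = 0.00758, or 0.0561 with the covariate), and fell at 5000 µM and 48 h (change -0.42 ± 0.08, adjusted p = 0.000138). Hnf4a, a factor of hepatocyte identity that also stands in the marker list, rose at 500 µM and 48 h by 0.72 ± 0.10 (adjusted p = 1.74e-06). With the covariate the rise of Hnf4a was 0.38 (adjusted p = 0.0357). Nfe2l2, the factor behind the antioxidant response, changed by -0.14 ± 0.05 at 5000 µM and 48 h (adjusted p = 0.0294). Of the 9 hepatocyte markers, 0 rose or fell at 5000 µM and 24 h in limma, and 2 had an unadjusted p under 0.05. With the covariate 1 of them fell there, and 2 rose at 5000 µM and 48 h. Beside Hnf4a, Apob rose at 500 µM and 48 h (change 0.236, adjusted p = 0.0298), or -0.019 with the covariate (adjusted p = 0.95).

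Markers of other cells also moved. Vim was lower in all 4 comparisons with vehicle, by -0.589 at 500 µM and -0.905 at 5000 µM after 24 h and by -0.543 and -0.93 after 48 h (adjusted p 1.51e-07 to 0.00289). Cd14 fell at 5000 µM, with changes of -0.544 at 24 h (adjusted p = 3.82e-07) and -0.282 at 48 h (adjusted p = 0.0028). Acta2 fell at 5000 µM and 48 h (change -0.471, adjusted p = 0.0107). Lyz2 fell at 500 µM and 48 h (change -0.202, adjusted p = 0.0276), or -0.119 with the covariate (adjusted p = 0.578). Cd68 and Col3a1 did not pass against vehicle. Epcam rose by 0.172 at 5000 µM and 24 h (adjusted p = 0.012) and fell at 48 h, with changes of -0.303 at 500 µM (adjusted p = 6.85e-05) and -0.142 at 5000 µM (adjusted p = 0.0438). With the covariate the Epcam change at 24 h was 0.052 (adjusted p = 0.489) and that at 500 µM and 48 h -0.121 (adjusted p = 0.278). Eng fell at 5000 µM and 48 h (change -0.868 ± 0.312, adjusted p = 0.0314), with arrays that overlapped vehicle. It was 1 of 2 endothelial markers tested, and the other, Kdr, did not pass. Their geometric mean signals, 493 and 506, lay near the limit of 469 for testing.

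**Figure D5:**
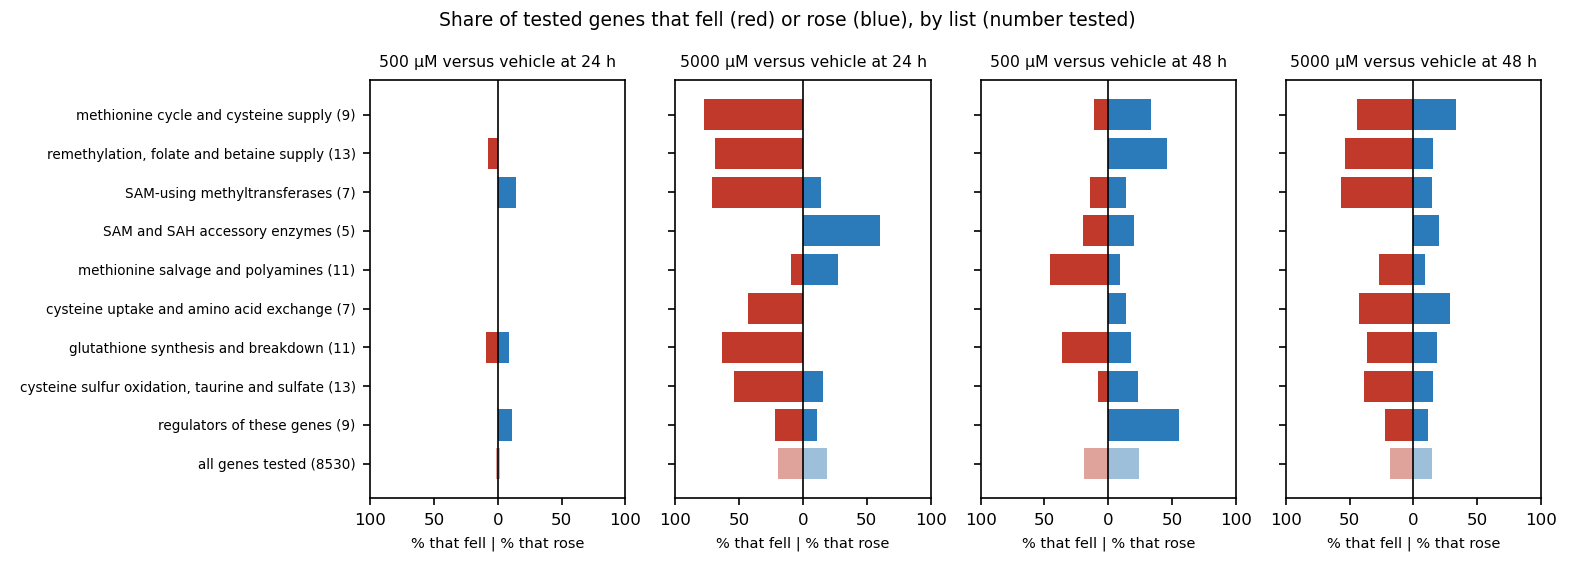
Percent of the tested genes of each list that fell (red, to the left) or rose (blue, to the right) against vehicle, with the number tested in brackets and all 8530 tested genes at the bottom. At 5000 µM and 24 h the lists of the 9 enzymes, remethylation, glutathione and cysteine uptake have bars to the left only. These hold 7 of 9, 9 of 13, 7 of 11 and 3 of 7 genes, against 19.6% of all genes.

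Over the 30 arrays, which share the 6 groups and therefore their treatment effects, the log2 signals of some of the enzymes varied together. The pair with the highest Pearson r of log2 signal was Gnmt and Csad (0.8), followed by Mat2a and Cth (0.78), Ahcy and Cdo1 (0.64) and Bhmt and Ahcy (0.61). The lowest was -0.58, between Mat2a and Ahcy. Among all tested genes outside the 9, Csad was most like Urad (0.944), Chd1l (0.935) and Acsm1 (0.926), and Gnmt was most like Polg2 (0.94), Acsm1 (0.914) and Pxmp2 (0.904), so both had Acsm1 in common. Cth was most like Apoc4 (0.932), Slc17a1 (0.921) and Palmd (0.91). Mat2a was most like Nek6 (0.898), Ccng1 (0.889) and Slc7a11 (0.889), the cystine exchanger described above. Bhmt was most like Ugt2b35 (0.899), Adk (0.875), the adenosine kinase, and Bhmt2 (0.87), its close relative, whose transcript could share probes with it. Mat1a was most like Aldh9a1 (0.864), Def8 (0.861) and Igsf11 (0.847), Ahcy most like Gstm1 (0.856), Arg1 (0.849) and Atp5mc3 (0.846), Cbs most like Parp10 (0.819), Fkbp5 (0.819) and Anpep (0.812), and Cdo1 most like Etfb (0.799), Rtraf (0.732) and Cat (0.718).

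Read as an order of levels, both 5000 µM groups were lowest for Mat2a, Gnmt, Cth and Csad. For Cth the 5000 µM arrays of 48 h, those of 24 h and the next group, 500 µM at 48 h, were apart without overlap. For Csad the 5000 µM arrays of 24 h were apart from those of 48 h, and 500 µM at 48 h was apart from the next group below it. For Mat2a and Gnmt the 2 groups of 5000 µM were apart from each other, and the remaining neighbours overlapped. For Bhmt, Ahcy, Cbs and Cdo1, as for Mat1a, all neighbouring groups in the order overlapped.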

How the data were processed

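The deposited values were MAS5 signal intensities on a linear scale, 1 per probe set and array of the Affymetrix rat genome array. The submitters' processing notes name MAS5 without a version. The authors had scaled the arrays: their 2% trimmed means lay between 1500.55 and 1500.66. From them log2 values were taken with no further scaling. The 57 control probe sets were left out. Of the rest, 20826 had 1 gene symbol in the platform annotation, 436 had several and 9780 had none. Symbols were updated to RefSeq through Entrez identifiers, which matched 20758. Each of 14217 genes was represented by the probe set of highest mean log2 signal, and the brightest 60%, with a geometric mean signal of 469 or more, were tested. A limma 3.58.1 model in R 4.3.3 estimated 6 group means from the 30 arrays together, with 24 residual degrees of freedom and eBayes with an intensity trend, and was tested on simulated data. Groups came from the sample titles. Replicate numbers follow the well numbers in those titles, so that each marks a run of 6 wells, which the main fit did not model. The precision is limited by the number of arrays.

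The 9 enzymes and the lists were chosen with earlier results of these data known. All 9 are named. At most the 2 called genes with the largest rise and the 2 with the largest fall were named per list and dose against vehicle. For some genes so named, values in further comparisons with vehicle are given too. For each enzyme the 3 genes most correlated with it were named. The alternatives were median centring, quantile normalization, no filter on dim genes, the mean of all probe sets, a fit of the groups compared alone, the β-actin 3′/5′ ratio as covariate, the other probe sets of Mat2a, leaving out each array and, added after seeing the data, a replicate block of the runs of well numbers in the titles. A value was called reversed only where the sign changed and either fit passed the threshold.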

Additional observations from a re-analysis of the deposited data

Results flagged for a closer look

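Of 54 groups of 5 arrays, 2 held an array far from the other 4, while chance alone gives about 1 in 20. Mat1a was 16094 on 5000 µM array 1 at 48 h, against 19528 to 20477 on the others, and Gnmt was 16022 on the same array, against 14212 to 14626.

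The effect of a dose differed between 24 and 48 h, by limma's test of the difference, in 8 of 18 tests, 4 of 9 at each dose. Among all tested genes the difference was above 0 for 22.1% and below 0 for 14.5% at 500 µM, and for 7.74% and 8.66% at 5000 µM. For 500 µM the effect at 48 h minus that at 24 h was 0.56 for Mat1a, -0.28 for Bhmt, 0.55 for Cbs and 0.30 for Csad. For 5000 µM it was 0.67 for Mat1a, -0.34 for Mat2a, 0.31 for Gnmt and 0.55 for Csad. With the actin ratio in the model, 0 of the 9 passed for 500 µM in limma (2 at an unadjusted p under 0.05) and 3 for 5000 µM.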

How the results depend on the processing

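Of 43 changes of the 9 enzymes that passed, 19 passed in every alternative. Under median centring the enzymes that passed numbered 4 at 5000 µM and 48 h (7 as deposited) and 2 for the difference between times at 5000 µM (4). All genes that passed numbered 1867 (2779) and 615 (1399) in the same comparisons, and 51 at 500 µM and 24 h (244). With the 3′/5′ covariate the enzymes numbered 1 at 500 µM and 48 h (4), 4 between the doses at 48 h (8) and 0 for the difference between times at 500 µM (4; limma, with 2 at an unadjusted p under 0.05, and 3 genes overall against 3126). The genes numbered 339 at 500 µM and 48 h (3632), 1782 between the doses at 48 h (4064), 440 for time in vehicle (2770) and 821 for the difference between times at 5000 µM (1399). With no filter 1 enzyme (3) and 2589 genes (2770) passed for time in vehicle. Between the 2 groups alone 100 genes passed at 500 µM and 24 h (244). Leaving out each array gave 1 to 3 enzymes for time in vehicle, 2 to 4 for the difference between times at 500 µM and 2 to 6 for that at 5000 µM. Over all genes it gave 2285 to 2658, 2642 to 3226 and 1105 to 1725 in the same order. It gave 116 to 290 genes at 500 µM and 24 h, with 155 and 156 without vehicle array 1 and 2, and 151 and 116 without 500 µM array 4 and 5. The cause of these shifts was not tested.

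Mat2a alone reversed. By the mean of its probe sets the change was 0.194 at 5000 µM and 24 h, 0.388 for time in vehicle and -0.575 for the difference between times at 500 µM. By the second brightest probe set it was 0.491, 0.759 and -1.127 for these and 0.409 between the doses at 48 h, and by the dimmest it was 0.373 at 5000 µM and 24 h. The labels state no pairing, but the titles number the wells in 5 runs of 6, each with 1 well of every group. Over same-run wells of different groups, deviations from the group means correlated between -0.32 and 0.43 (above 0.1 in 31 of 75 pairs), and 19 of 30 arrays were closest to their own run. With these runs as a replicate block, chosen after seeing the data, 9 enzymes passed between the doses at 48 h (8), as Cdo1 now passed (0.132, adjusted p = 0.0436). No other enzyme call changed, and 322 genes passed at 500 µM and 24 h (244).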
